A study of Mus musculus with 17 samples.

Results

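The genes described here encode the enzymes of the tricarboxylic acid (TCA) cycle, the enzymes and carriers of the malate-aspartate shuttle, and the enzymes that refill the cycle (anaplerosis) in mouse skeletal muscle. They were taken from a list of 34 genes by symbol. A probe set (the group of array probes that reports 1 transcript) carrying a single gene symbol was found for 33 of them, among 19938 genes measured in this way, and the highest on average was used where a gene had several. Mpc2 had no such probe set and was not analysed here.

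Skeletal muscle of male wildtype C57BL/6N mice aged 5 to 6 months was hybridised to 17 arrays, 1 array per mouse. In the STZ,BEZ group (5 mice) insulin-deficient diabetes was induced with streptozotocin (STZ), which destroys pancreatic beta cells, and bezafibrate (BEZ), a lipid-lowering agonist of the peroxisome proliferator-activated receptors, was mixed into the chow. The STZ,SD group (5 mice) received STZ and standard diet (SD), and the Con,SD group (7 mice) received standard diet without STZ. The study asked which transcripts changed in diabetes and which changed with BEZ. Per the labels, STZ was injected at 65 mg/kg on 5 days at 10 to 16 weeks of age, controls were mock-injected with citrate buffer, and BEZ was given for 8 weeks from 2 weeks after STZ at 0.25% or 0.5% (w/w), without saying which mouse received which strength. The study's methods give another STZ dose, only the higher BEZ strength and untreated controls. The muscle sampled was not named.

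The TCA cycle oxidises acetyl-CoA from glucose, fatty acids and amino acids in the mitochondrial matrix and passes the electrons to the respiratory chain. Anaplerotic enzymes such as pyruvate carboxylase replace cycle intermediates that are drawn off, and the malate-aspartate shuttle carries reducing equivalents from glycolysis into the matrix. Oxidative, slow muscle fibres are rich in these enzymes.

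Transcripts of this pathway were mostly lower in diabetic muscle. In STZ,SD muscle against Con,SD muscle, 18 of 33 transcripts fell (limma, Benjamini-Hochberg adjusted p under 0.1 over all genes), while 11.9% of all genes were called lower. Another 3 of 33, Idh2, Suclg1 and Sdhc, rose, while 13.9% of all genes were called higher. Rises were thus no more frequent here than among all genes. The difference was positive for 6 of 33 transcripts, against 47.7% of all genes, and its median was -0.22 on the log2 scale, against -0.01 for all genes. In 9 transcripts every STZ,SD array lay below every Con,SD array, a pattern found in 3.43% of all genes, and in 1 every STZ,SD array lay above, as in 4.87% of all genes. Among genes outside the dimmest 30% the shares called were 12.5% lower and 19.0% higher. In this bulk tissue, fewer cells of a type and less RNA per cell cannot be told apart.

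With BEZ, no transcript of the pathway was called. In STZ,BEZ muscle against STZ,SD muscle, limma called 0 of 33 lower and 0 of 33 higher, with 0.0% and 0.0201% of all genes called in these directions. Significance analysis of microarrays (SAM), the algorithm named in the study, also called 0 of 33. At an unadjusted p under 0.05, 6 transcripts were higher (Sdha, Sdhb, Fh1, Pcx, Slc25a1 and Slc25a11) and 0 were lower, while 3.55% and 2.14% of all genes were. The 4 genes called higher were 0.0287% of genes outside the dimmest 30%. The difference was positive for 30 of 33 transcripts, against 50.7% of all genes, and its median was 0.11, against 0.0016 for all genes.

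Against Con,SD muscle, STZ,BEZ muscle had 9 of 33 transcripts called lower and 4 called higher, while 8.45% and 13.1% of all genes were called. The share called higher was close to that of all genes. Outside the dimmest 30% the shares were 8.24% and 18.1%. The difference was positive for 7 of 33, against 46.9% of all genes, and its median was -0.10, against -0.01 for all genes. All STZ,BEZ arrays lay below all Con,SD arrays for 3 transcripts (Idh3a, Dlst and Sdha) and above them for 2 (Suclg1 and Sdhc). These patterns were found in 2.5% and 6.01% of all genes, so the share lying above was close to that of all genes. All 9 transcripts called lower had also been called lower in STZ,SD muscle. The other 9 of the 18 that fell in STZ,SD muscle were not called. The comparisons share arrays, since STZ,SD stands in the first and the second of them and Con,SD in the first and the last, and so are not independent.

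**Figure D1:**
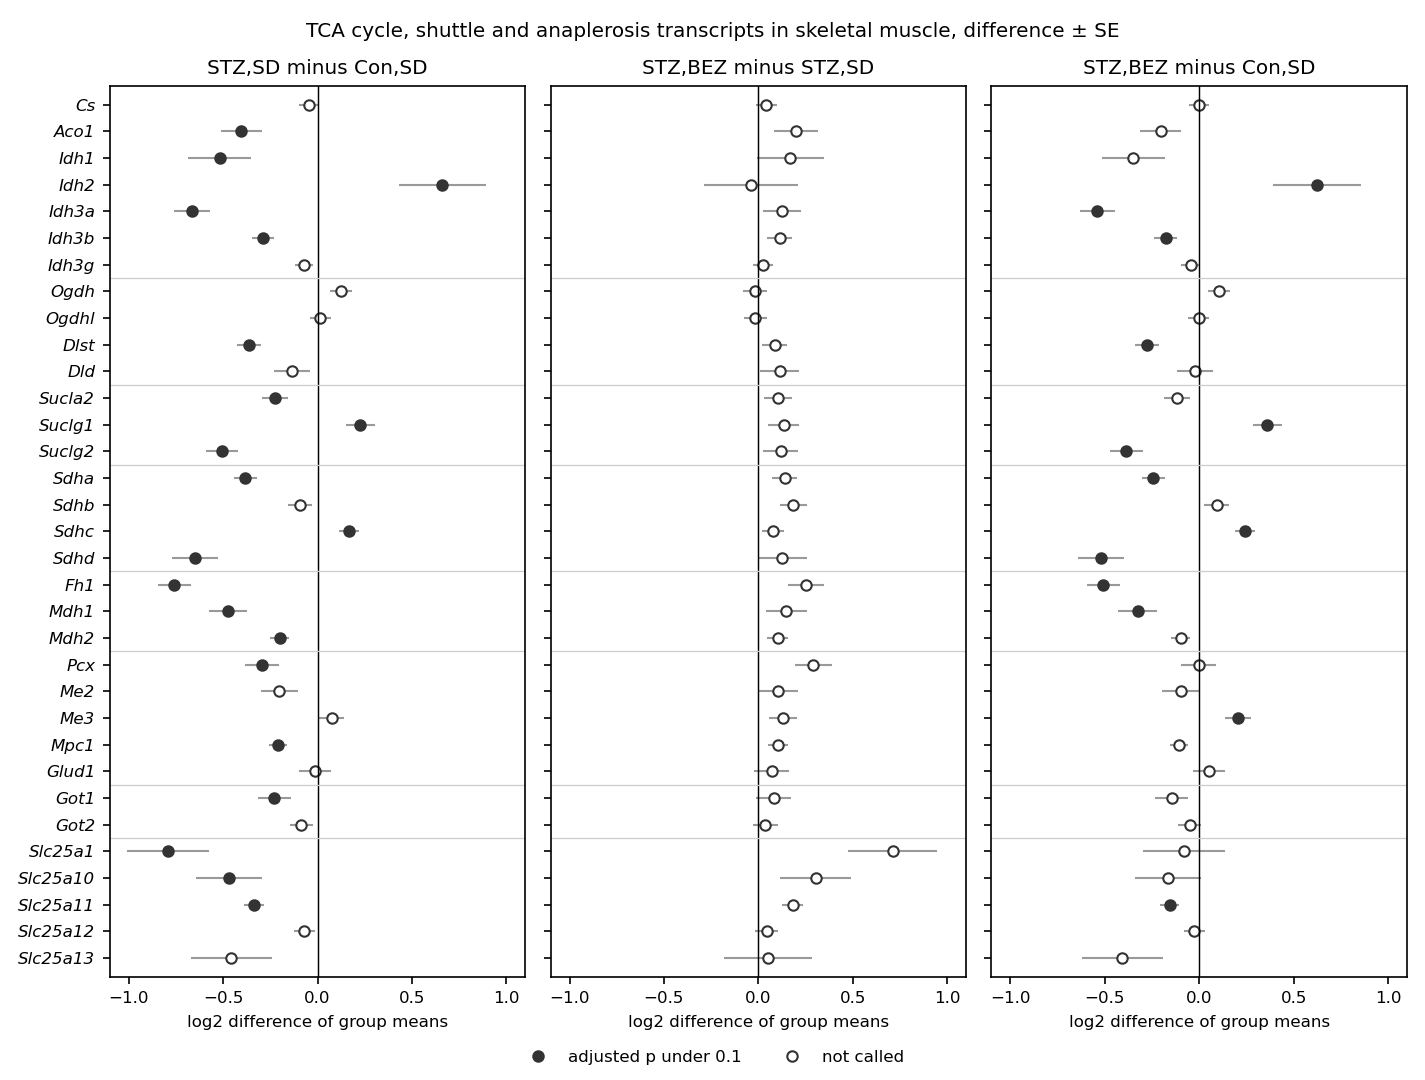
Log2 difference ± SE of the group means (x axis) for the 33 transcripts (rows, grouped by role) in STZ,SD against Con,SD, STZ,BEZ against STZ,SD and STZ,BEZ against Con,SD. Filled points were called at an adjusted p under 0.1: 18 lower and 3 higher in the left panel, 0 in the middle panel, 9 lower and 4 higher in the right panel.

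All values are log2 robust multi-array average (RMA) values as deposited, and differences are given ± SE of the fit. Every array carried the muscle label in its transcripts: the mean of 10 skeletal muscle markers lay between 13.27 and 13.39 on all 17. Con,SD array 1 stood apart. Its mean over 13 hepatocyte markers was 11.75, against 7.42 to 9.71 on the other Con,SD arrays, and its mean over 8 testis germ cell markers was 8.45, against 5.33 to 5.81. Of the hepatocyte markers 6 of 13 were called lower in STZ,BEZ and 1 in STZ,SD muscle against Con,SD. Of 14 fast fibre markers 5 were called lower and of 8 endothelial markers 4 were called higher in each of these comparisons. Among all genes 11.9% were called lower and 13.9% higher in STZ,SD muscle, and 8.45% lower and 13.1% higher in STZ,BEZ muscle. The part of the hepatocyte markers in the results was tested only by the covariate fits named. That of the fast fibre and endothelial markers was not tested. Without Con,SD array 1, 17 transcripts were called lower and 3 higher in STZ,SD muscle, and 9 lower and 4 higher in STZ,BEZ muscle, each against Con,SD.

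In the steps from oxaloacetate to 2-oxoglutarate, 4 of 7 transcripts fell in STZ,SD muscle against Con,SD muscle and 1 rose. Among all genes 11.9% were called lower and 13.9% higher. The largest fall was in Idh3a, the catalytic subunit of the NAD-dependent mitochondrial isocitrate dehydrogenase. Idh3a had 11.89, 11.71, 11.99, 11.96 and 11.68 in STZ,BEZ muscle and 11.83, 11.40, 11.74, 11.98 and 11.65 in STZ,SD muscle, against a lowest value of 12.10, a median of 12.44 and a highest of 12.51 in Con,SD muscle. All 10 diabetic arrays lay below all 7 control arrays. Idh3a fell by 0.67 ± 0.09 in STZ,SD muscle (1.59-fold lower, adjusted p = 0.00013) and by 0.54 ± 0.09 in STZ,BEZ muscle (adjusted p = 0.00115), each against Con,SD. It differed by 0.13 ± 0.10 between STZ,BEZ and STZ,SD muscle (adjusted p = 0.971, 95% interval -0.09 to 0.34).

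Idh3b, a regulatory subunit of the same enzyme, had 12.41, 12.32, 12.55, 12.43 and 12.30 in STZ,BEZ muscle and 12.22, 12.27, 12.35, 12.38 and 12.23 in STZ,SD muscle, against 12.39, 12.62 and 12.65 (lowest, median, highest) in Con,SD muscle. The STZ,SD arrays did not overlap the Con,SD arrays, and the STZ,BEZ arrays did. It fell by 0.29 ± 0.06 in STZ,SD muscle (adjusted p = 0.0025) and by 0.18 ± 0.06 in STZ,BEZ muscle (adjusted p = 0.0533). The call in STZ,BEZ muscle was lost without STZ,BEZ array 2 or 5 (adjusted p = 0.135 and 0.136), after a further quantile normalization (-0.11, adjusted p = 0.23) and without Con,SD arrays 1, 3 and 4 together (-0.15, adjusted p = 0.197). Idh3g, the other regulatory subunit, was not called in any comparison, with means of 12.57 ± 0.03 in STZ,BEZ, 12.55 ± 0.06 in STZ,SD (SD, n = 5 each) and 12.62 ± 0.07 in Con,SD muscle (SD, n = 7).

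Idh2, the NADP-dependent mitochondrial isoenzyme, went the other way. Its values were 10.91, 11.35, 10.87, 11.09 and 11.43 in STZ,BEZ muscle and 11.27, 11.83, 11.76, 10.45 and 10.54 in STZ,SD muscle, against 9.96, 10.38 and 10.92 (lowest, median, highest) in Con,SD muscle. The STZ,SD arrays fell into 3 high and 2 low values, and both groups overlapped Con,SD. Idh2 rose by 0.66 ± 0.23 in STZ,SD muscle (1.58-fold, adjusted p = 0.054) and by 0.62 ± 0.23 in STZ,BEZ muscle (1.54-fold, adjusted p = 0.0795). The call in STZ,SD muscle was lost without STZ,SD array 2 or 3 (difference 0.50 and 0.51, adjusted p = 0.163 for each), and that in STZ,BEZ muscle without any 1 of 7 arrays (Con,SD arrays 2, 3, 5 and 6, STZ,BEZ arrays 2, 4 and 5), with differences of 0.53 to 0.63 and adjusted p of 0.116 to 0.173.

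The level of Idh2 moved with the markers of slow fibres. The mean over 12 slow fibre markers was 10.36, 9.75 and 9.74 on STZ,SD arrays 1 to 3, where Idh2 was high, and 8.00 and 7.61 on arrays 4 and 5, where it was low. It spanned 8.92 to 10.35 in STZ,BEZ muscle, 7.61 to 10.36 in STZ,SD muscle and 7.44 to 9.68 in Con,SD muscle, and of the 12 markers 1 was called lower and 1 higher in STZ,SD against Con,SD. With this level as a covariate, an alternative added after seeing the data, Idh2 was 0.47 higher in STZ,SD muscle (adjusted p = 0.0165) and 0.28 higher in STZ,BEZ muscle (adjusted p = 0.18), each against Con,SD. With the adipocyte marker level as a covariate the call in STZ,SD muscle was lost (0.55, adjusted p = 0.129).

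Citrate synthase (Cs), which forms citrate from oxaloacetate and acetyl-CoA, was not called. Its enzyme activity is widely used as a measure of mitochondrial content, but only its transcript was read here. The Cs transcript was much the same in the 3 groups. It averaged 12.40 ± 0.03 in STZ,BEZ, 12.36 ± 0.08 in STZ,SD (SD, n = 5 each) and 12.40 ± 0.09 in Con,SD muscle (SD, n = 7). The 95% interval of its difference was -0.15 to 0.07 for STZ,SD against Con,SD and -0.08 to 0.16 for STZ,BEZ against STZ,SD.

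The cytosolic enzymes of this step also fell in STZ,SD muscle against Con,SD muscle. Idh1, the cytosolic NADP-dependent isocitrate dehydrogenase, fell by 0.52 ± 0.17 (adjusted p = 0.0369), and Aco1, the cytosolic aconitase that doubles as iron regulatory protein, fell by 0.40 ± 0.11 (adjusted p = 0.0133). Both were highest of all arrays on Con,SD array 1, at 10.06 for Idh1 and 9.23 for Aco1, where the hepatocyte markers were also highest. Without this array the differences were -0.37 for Idh1 (adjusted p = 0.0213) and -0.33 for Aco1 (adjusted p = 0.0151). In STZ,BEZ muscle Idh1 differed from Con,SD by -0.35 ± 0.17 (adjusted p = 0.169), and was called without Con,SD array 4 (-0.44, adjusted p = 0.0777). With the hepatocyte marker level as a covariate Idh1 differed by -0.31 in STZ,SD muscle (adjusted p = 0.0248) and by 0.0042 in STZ,BEZ muscle.

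In the 2-oxoglutarate dehydrogenase complex, which makes succinyl-CoA, only the core subunit was called. Dlst, the dihydrolipoyl succinyltransferase core, had 10.11, 9.99, 10.18, 10.16 and 10.03 in STZ,BEZ muscle and 10.08, 9.89, 10.06, 10.07 and 9.95 in STZ,SD muscle, against 10.19, 10.37 and 10.57 (lowest, median, highest) in Con,SD muscle. None of the 10 diabetic arrays reached the lowest control array. Dlst fell by 0.36 ± 0.06 in STZ,SD muscle (1.29-fold lower, adjusted p = 0.000638) and by 0.28 ± 0.06 in STZ,BEZ muscle (adjusted p = 0.00637). Ogdh, the decarboxylating first subunit, was 0.12 ± 0.06 higher in STZ,SD muscle without being called (adjusted p = 0.147), and was called without Con,SD array 7 (0.15, adjusted p = 0.063) and after a further quantile normalization (0.21, adjusted p = 0.00906). Its difference between STZ,BEZ and STZ,SD muscle was -0.02 ± 0.06, and between STZ,BEZ and Con,SD muscle 0.11 ± 0.06. Dld, the lipoamide dehydrogenase shared with other 2-oxoacid complexes, and Ogdhl, an Ogdh-like protein, were not called in any comparison.

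Promoter windows of these genes were read for 4 sequence motifs tied to mitochondrial gene control. RefSeq (GRCm38.p6) windows of 250 bases before to 50 bases after a transcript start were found for 30 of the 33 genes, 38 windows in all, and were read on both strands with exact matches. Nuclear respiratory factor 1 (NRF1) letters GCGCATGCG stood in windows of Ogdh, and in 1.75% of all 32851 windows. GABP letters CCGGAAGT stood in the window of Dlst and in 3.89% of all windows. Estrogen-related receptor (ERR) letters TCAAGGTCA stood in the window of Sdhd and in 0.423% of all windows. FoxO letters TGTTTAC stood in 0 of the 38 windows and in 3.65% of all windows. No other gene of the 30 had a match. The letters in Ogdh are 1 site that stood in 2 overlapping windows. Of the 38 windows, 5.26% held the NRF1, 2.63% the GABP and 2.63% the ERR letters, so GABP lay below its share of all windows. In STZ,SD muscle Ogdh was not called and Dlst and Sdhd fell. The 3 matches are shown with up to 10 bases on either side and the match in capitals. They are a description of letters only, and a link to the changes was not tested.
Ogdh, NRF1, 15 to 7 bases before the start, plus strand, chr11:6292533-6292561: taggtgttgtGCGCATGCGtaactcaact
Dlst, GABP on the opposite strand, bases 1 to 8 from the start, plus strand, chr12:85110823-85110850: ggccggtctcACTTCCGGttgctgccgg
Sdhd, ERR on the opposite strand, bases 37 to 45 from the start, minus strand, chr9:50603800-50603823: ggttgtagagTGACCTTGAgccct

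In succinyl-CoA ligase, which conserves energy as ATP or GTP, the subunits moved apart. Suclg2, the GTP-specific beta subunit, had 8.98, 9.08, 8.95, 9.29 and 9.07 in STZ,BEZ muscle and 8.92, 9.03, 8.97, 8.98 and 8.88 in STZ,SD muscle, against 9.19, 9.42 and 9.81 (lowest, median, highest) in Con,SD muscle. The STZ,SD arrays did not overlap the control arrays. It fell by 0.51 ± 0.09 in STZ,SD muscle (1.42-fold lower, adjusted p = 0.000621) and by 0.39 ± 0.09 in STZ,BEZ muscle (adjusted p = 0.00607). By array order its probe set belonged elsewhere: 0 of 15 neighbouring probe sets named genes on the chromosome of Suclg2, so that signal of a near-identical copy is possible. Its other probe set, with 20 of 20 neighbours on that chromosome, differed by -0.48 in STZ,SD and by -0.31 in STZ,BEZ muscle from Con,SD.

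Sucla2, the ATP-specific beta subunit, had 10.91, 10.99, 11.03, 11.04 and 11.00 in STZ,BEZ muscle and 11.11, 10.65, 10.88, 10.97 and 10.84 in STZ,SD muscle, against 10.92, 11.12 and 11.19 (lowest, median, highest) in Con,SD muscle. It fell by 0.22 ± 0.07 in STZ,SD muscle (adjusted p = 0.0295), with overlapping groups, a call lost without Con,SD arrays 1, 3 and 4 together (-0.21, adjusted p = 0.102). Suclg1, the alpha subunit that both ligases share, had 10.76, 10.68, 10.70, 10.82 and 10.73 in STZ,BEZ muscle and 10.75, 10.39, 10.60, 10.69 and 10.60 in STZ,SD muscle, against 10.11, 10.36 and 10.60 in Con,SD muscle. All STZ,BEZ arrays lay above all Con,SD arrays. Suclg1 rose by 0.23 ± 0.08 in STZ,SD muscle (adjusted p = 0.049), a call lost without STZ,SD array 1 (0.19, adjusted p = 0.122) or 4 (0.21, adjusted p = 0.102), and by 0.36 ± 0.08 in STZ,BEZ muscle (1.28-fold, adjusted p = 0.00464).

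Succinate dehydrogenase, or complex II of the respiratory chain, oxidises succinate to fumarate, and its 4 subunits did not move together. Sdhd, a membrane anchor, had 10.67, 10.56, 10.89, 10.84 and 10.55 in STZ,BEZ muscle and 10.79, 10.38, 10.59, 10.69 and 10.44 in STZ,SD muscle, against 10.60, 11.34 and 11.41 (lowest, median, highest) in Con,SD muscle. The other 6 control arrays lay at or above 11.21, above all diabetic arrays, and only Con,SD array 6 lay among them. Sdhd fell by 0.65 ± 0.12 in STZ,SD muscle (1.57-fold lower, adjusted p = 0.00129) and by 0.52 ± 0.12 in STZ,BEZ muscle (adjusted p = 0.00771), and without that array by 0.75 and 0.63.

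Sdha, the flavoprotein that binds succinate, had 11.94, 11.80, 12.05, 11.99 and 11.97 in STZ,BEZ muscle and 11.79, 11.82, 11.94, 11.86 and 11.64 in STZ,SD muscle, against 12.06, 12.18 and 12.28 (lowest, median, highest) in Con,SD muscle. Neither diabetic group overlapped the controls. Sdha fell by 0.38 ± 0.06 in STZ,SD muscle (1.30-fold lower, adjusted p = 0.000329) and by 0.24 ± 0.06 in STZ,BEZ muscle (adjusted p = 0.0123). Its difference between STZ,BEZ and STZ,SD muscle was 0.14 ± 0.07 (adjusted p = 0.871).

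Sdhc, the other membrane anchor, rose. It had 11.74, 11.70, 11.83, 11.65 and 11.56 in STZ,BEZ muscle and 11.62, 11.58, 11.63, 11.65 and 11.60 in STZ,SD muscle, against 11.33, 11.46 and 11.55 (lowest, median, highest) in Con,SD muscle, and all 10 diabetic arrays lay above all 7 control arrays. The difference was 0.16 ± 0.05 in STZ,SD muscle (1.12-fold, adjusted p = 0.0389) and 0.24 ± 0.05 in STZ,BEZ muscle (1.18-fold, adjusted p = 0.00527). Without Con,SD arrays 1, 3 and 4 together Sdhc was not called in STZ,SD muscle (0.13, adjusted p = 0.176). Sdhb, the iron-sulphur subunit, was not called. It had 11.90, 11.90, 12.06, 11.89 and 11.86 in STZ,BEZ muscle, above all STZ,SD values of 11.72, 11.74, 11.85, 11.80 and 11.58, against 11.69, 11.79 and 12.01 in Con,SD muscle. The difference between STZ,BEZ and STZ,SD muscle was 0.18 ± 0.07 (adjusted p = 0.802), and groups that did not overlap in this direction were found for 0.677% of all genes in this comparison.

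**Figure D2:**
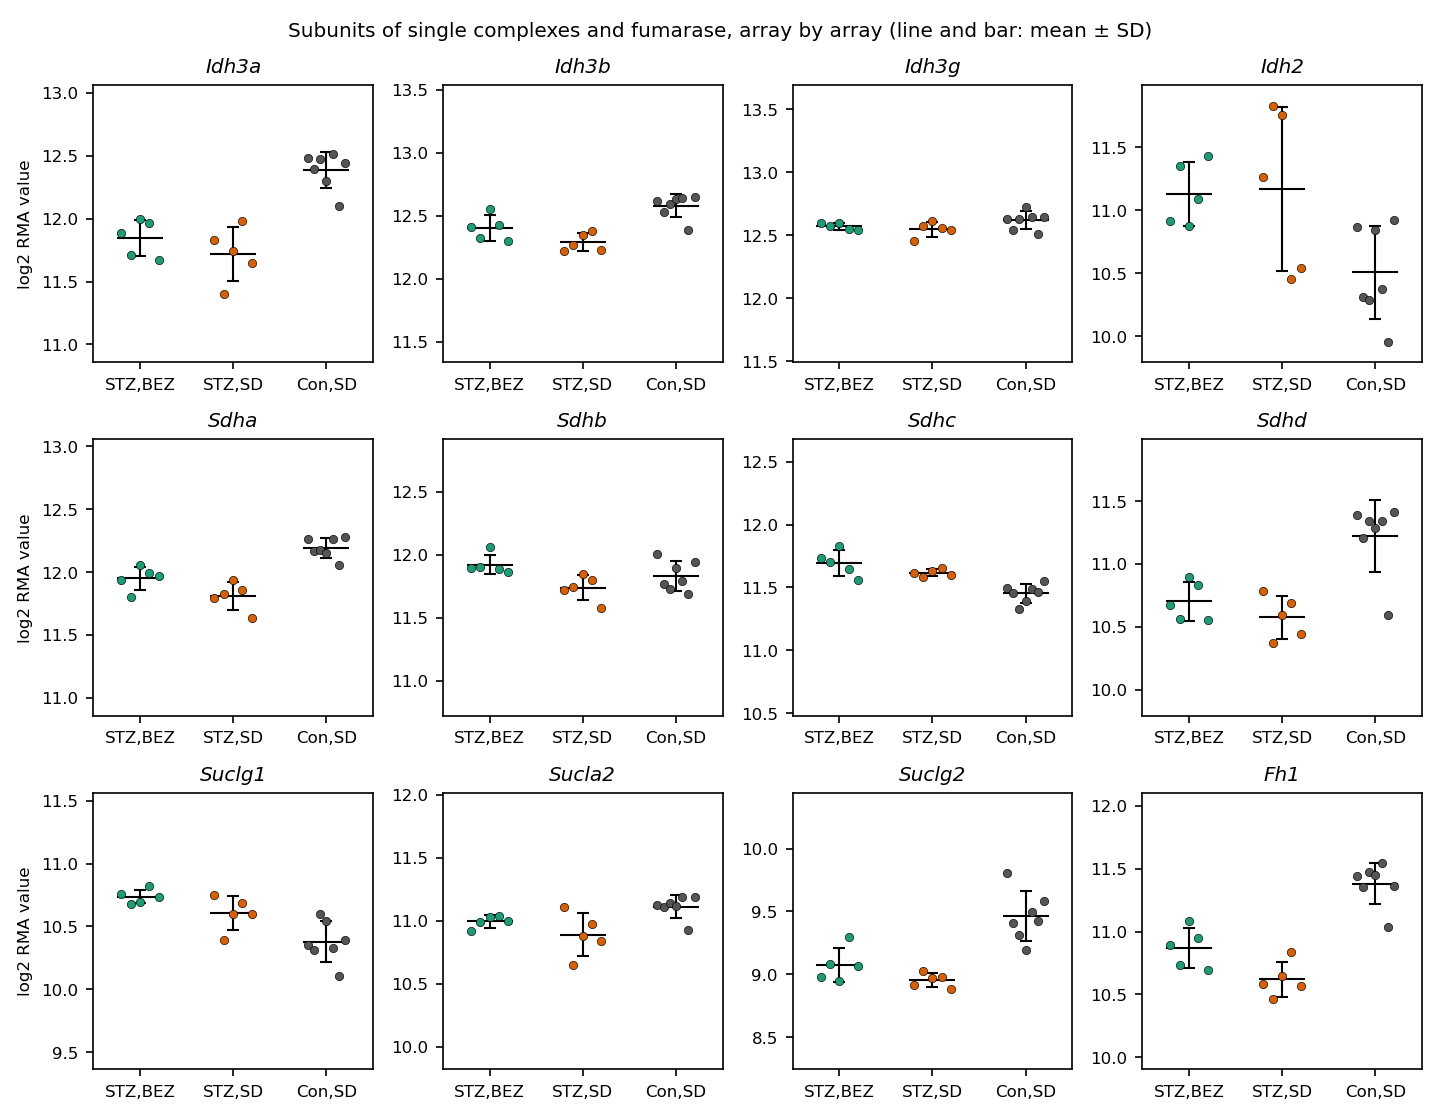
Log2 RMA values (y axis, the same span in each panel) of 12 transcripts on each array of the STZ,BEZ (n = 5), STZ,SD (n = 5) and Con,SD (n = 7) groups. Points are arrays, long dashes group means and bars SD. Idh3a, Sdha and Fh1 lay lower in STZ,SD than in Con,SD muscle on every array, Sdhc lay higher on every array, and Idh2 split into 3 high and 2 low STZ,SD arrays.

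Fumarase and both malate dehydrogenases fell in STZ,SD muscle. Fumarase (Fh1), which turns fumarate into malate, had the smallest adjusted p of the 33 transcripts. It had 10.90, 10.73, 11.08, 10.95 and 10.70 in STZ,BEZ muscle and 10.59, 10.46, 10.65, 10.84 and 10.56 in STZ,SD muscle, against 11.04, 11.44 and 11.54 (lowest, median, highest) in Con,SD muscle. All STZ,SD arrays lay below all control arrays, and 1 STZ,BEZ array, at 11.08, passed Con,SD array 6, the lowest control. Fh1 fell by 0.76 ± 0.09 in STZ,SD muscle (1.69-fold lower, adjusted p = 2.53e-05) and by 0.51 ± 0.09 in STZ,BEZ muscle (1.42-fold lower, adjusted p = 0.00109). The difference between STZ,BEZ and STZ,SD muscle was 0.25 ± 0.10 (adjusted p = 0.796, 95% interval 0.05 to 0.45).

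Mdh1, the cytosolic malate dehydrogenase of the shuttle, had 11.28, 11.36, 11.58, 11.32 and 11.21 in STZ,BEZ muscle and 11.35, 11.10, 11.28, 11.34 and 10.95 in STZ,SD muscle, against 11.30, 11.79 and 11.88 (lowest, median, highest) in Con,SD muscle. The groups overlapped only through Con,SD array 6 in STZ,SD muscle. Mdh1 fell by 0.47 ± 0.10 in STZ,SD muscle (1.39-fold lower, adjusted p = 0.00332) and by 0.33 ± 0.10 in STZ,BEZ muscle (adjusted p = 0.0381). The call in STZ,BEZ muscle was lost without Con,SD arrays 1, 3 and 4 together (-0.21, adjusted p = 0.233). Mdh2, the mitochondrial enzyme of the cycle, fell by 0.20 ± 0.05 in STZ,SD muscle (1.15-fold lower, adjusted p = 0.0108), with no overlap of the groups. The call was lost after a further quantile normalization (-0.14, adjusted p = 0.101). It averaged 13.04 ± 0.06 in STZ,BEZ, 12.94 ± 0.07 in STZ,SD (SD, n = 5 each) and 13.14 ± 0.07 in Con,SD muscle (SD, n = 7), and STZ,BEZ muscle was called against neither group.

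Among the entry points for pyruvate and glutamate, 2 of 5 transcripts fell in STZ,SD muscle, while 11.9% of all genes were called lower. Mpc1, a subunit of the mitochondrial pyruvate carrier, had 11.93, 11.85, 11.97, 11.91 and 11.92 in STZ,BEZ muscle and 11.87, 11.81, 11.81, 11.82 and 11.75 in STZ,SD muscle, against 11.94, 12.02 and 12.14 (lowest, median, highest) in Con,SD muscle. The STZ,SD arrays lay below all control arrays. Mpc1 fell by 0.21 ± 0.05 in STZ,SD muscle (adjusted p = 0.00566) and differed by -0.11 ± 0.05 in STZ,BEZ muscle (adjusted p = 0.151), each against Con,SD. After a further quantile normalization it missed the threshold in STZ,SD muscle as well (-0.12, adjusted p = 0.1). Its only probe set had 0 of 19 neighbours on the gene's chromosome, so that signal of a near-identical copy is possible here as well.

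Pcx, pyruvate carboxylase, which makes oxaloacetate from pyruvate, had 9.17, 9.35, 9.11, 9.03 and 8.87 in STZ,BEZ muscle and 8.83, 8.75, 8.66, 8.96 and 8.89 in STZ,SD muscle, against 8.77, 9.20 and 9.28 (lowest, median, highest) in Con,SD muscle. It fell by 0.29 ± 0.09 in STZ,SD muscle (1.23-fold lower, adjusted p = 0.031). It was 0.29 ± 0.10 higher in STZ,BEZ than in STZ,SD muscle without being called (adjusted p = 0.778), and differed by -0.0035 ± 0.09 between STZ,BEZ and Con,SD muscle (adjusted p = 0.984, 95% interval -0.19 to 0.19).

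Me3, a mitochondrial NADP-dependent malic enzyme, was called only against Con,SD in STZ,BEZ muscle. It had 9.36, 9.46, 9.44, 9.48 and 9.36 in STZ,BEZ muscle and 9.23, 9.38, 9.49, 9.16 and 9.19 in STZ,SD muscle, against 9.07, 9.22 and 9.37 (lowest, median, highest) in Con,SD muscle. It rose by 0.21 ± 0.07 (adjusted p = 0.0476), a call lost without STZ,BEZ array 2 (0.20, adjusted p = 0.106) or 4 (0.19, adjusted p = 0.104), without Con,SD arrays 1, 3 and 4 together (0.17, adjusted p = 0.164) and after adjustment for slow fibre markers (0.16, adjusted p = 0.138). Me2, the mitochondrial NAD-dependent malic enzyme, and Glud1, glutamate dehydrogenase, were not called in any comparison.

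Of the aspartate aminotransferases of the shuttle, the cytosolic Got1 fell by 0.23 ± 0.09 in STZ,SD muscle (1.17-fold lower, adjusted p = 0.0705). It had 12.63, 12.56, 12.70, 12.59 and 12.54 in STZ,BEZ muscle and 12.49, 12.70, 12.69, 12.44 and 12.29 in STZ,SD muscle, against 12.52, 12.73 and 12.96 (lowest, median, highest) in Con,SD muscle, with overlapping groups. The call was lost without any 1 of 6 arrays (Con,SD arrays 1, 5 and 7, STZ,SD arrays 1, 4 and 5), with differences of -0.22 to -0.17 and adjusted p of 0.108 to 0.195, and when the STZ,BEZ arrays were left out of the fit (adjusted p = 0.126). It was lost as well after a further quantile normalization (-0.14, adjusted p = 0.259) and with the hepatocyte marker level as a covariate (-0.20, adjusted p = 0.13), and in 11 of 32 alternatives in all. Got2, the mitochondrial enzyme, was not called. Its probe set had 0 of 20 neighbours on the gene's chromosome, and differed by -0.09 between STZ,SD and Con,SD muscle, while its other probe set, with 16 of 16 neighbours on that chromosome, differed by -0.07.

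Of the carriers, 3 of 5 fell in STZ,SD muscle, while 11.9% of all genes were called lower. Slc25a11, the 2-oxoglutarate-malate exchanger of the shuttle, had 11.92, 11.90, 12.06, 12.05 and 11.92 in STZ,BEZ muscle and 11.80, 11.71, 11.79, 11.88 and 11.76 in STZ,SD muscle, against 12.02, 12.13 and 12.22 (lowest, median, highest) in Con,SD muscle. The STZ,SD arrays lay below all arrays of both other groups. Slc25a11 fell by 0.34 ± 0.05 in STZ,SD muscle (1.26-fold lower, adjusted p = 0.00022). It was 0.18 ± 0.05 higher in STZ,BEZ than in STZ,SD muscle without being called (adjusted p = 0.778), and fell by 0.16 ± 0.05 in STZ,BEZ muscle against Con,SD (adjusted p = 0.0478), a call lost without STZ,BEZ array 2 (-0.14, adjusted p = 0.124) or 5 (-0.14, adjusted p = 0.11) and after a further quantile normalization (-0.11, adjusted p = 0.189).

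Slc25a1, the citrate carrier that exports citrate for fatty acid synthesis, had the largest fall and the largest difference with BEZ of the 33 transcripts. It had 9.06, 9.66, 8.70, 8.80 and 8.86 in STZ,BEZ muscle and 8.78, 7.65, 8.13, 8.46 and 8.49 in STZ,SD muscle, against 8.58, 8.97 and 9.66 (lowest, median, highest) in Con,SD muscle. The groups overlapped. Slc25a1 fell by 0.79 ± 0.22 in STZ,SD muscle (1.73-fold lower, adjusted p = 0.0161), was 0.71 ± 0.23 higher in STZ,BEZ than in STZ,SD muscle without being called (1.64-fold, adjusted p = 0.778), and differed by -0.08 ± 0.22 between STZ,BEZ and Con,SD muscle (adjusted p = 0.836).

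Slc25a10, the dicarboxylate carrier, which exchanges malate and succinate for phosphate, had 8.14, 8.30, 7.79, 7.74 and 7.91 in STZ,BEZ muscle and 7.91, 7.31, 7.30, 7.82 and 8.02 in STZ,SD muscle, against 7.73, 8.05 and 8.65 (lowest, median, highest) in Con,SD muscle. STZ,SD arrays 2 and 3 were the lowest of all. Slc25a10 fell by 0.47 ± 0.18 in STZ,SD muscle (1.39-fold lower, adjusted p = 0.0691). The call was lost without any 1 of 5 arrays (Con,SD arrays 1, 2 and 6, STZ,SD arrays 2 and 3), with differences of -0.43 to -0.38 and adjusted p of 0.102 to 0.187, and when the STZ,BEZ arrays were left out of the fit (adjusted p = 0.107). It was lost as well after adjustment for hepatocyte (-0.35, adjusted p = 0.141) or slow fibre markers (-0.42, adjusted p = 0.113), and in 11 of 32 alternatives in all.

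Markers of fat cells varied between the arrays as well. The mean over 8 adipocyte markers was lowest of all 17 arrays on STZ,SD array 2, at 7.96, where Slc25a1 was lowest. On STZ,BEZ array 2 it was 9.48, where Slc25a1 was at 9.66. Other arrays did not follow this order. Slc25a1 was as high, at 9.66, on Con,SD array 1 with an adipocyte level of 8.98. It was at 9.36 on Con,SD array 2, which had the highest level of 10.01. The adipocyte level spanned 8.35 to 9.48 in STZ,BEZ, 7.96 to 8.97 in STZ,SD and 8.59 to 10.01 in Con,SD muscle. In STZ,SD against Con,SD 1 of 8 markers was called lower. With this level as a covariate, added after seeing the data, Slc25a1 still differed in STZ,SD muscle (-0.55, adjusted p = 0.0321) and Slc25a10 was no longer called (-0.26, adjusted p = 0.168), while Slc25a1 differed by 0.47 between STZ,BEZ and STZ,SD muscle (adjusted p = 0.948).

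Slc25a12 and Slc25a13, the aspartate-glutamate carriers of the shuttle, were not called. Slc25a12 averaged 12.63 ± 0.09 in STZ,BEZ, 12.58 ± 0.06 in STZ,SD (SD, n = 5 each) and 12.65 ± 0.09 in Con,SD muscle (SD, n = 7). Slc25a13, the form known from liver, was between 5.37 and 5.65 in STZ,BEZ muscle and between 5.40 and 5.62 in STZ,SD muscle, against 5.47, 5.81 and 7.33 (lowest, median, highest) in Con,SD muscle. The highest value was that of Con,SD array 1, with its hepatocyte markers. The difference between STZ,SD and Con,SD was -0.46 ± 0.21 (adjusted p = 0.148), and -0.23 without this array, when it was called (adjusted p = 0.0435). It was called without Con,SD array 6 as well (-0.54, adjusted p = 0.0915).

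**Figure D3:**
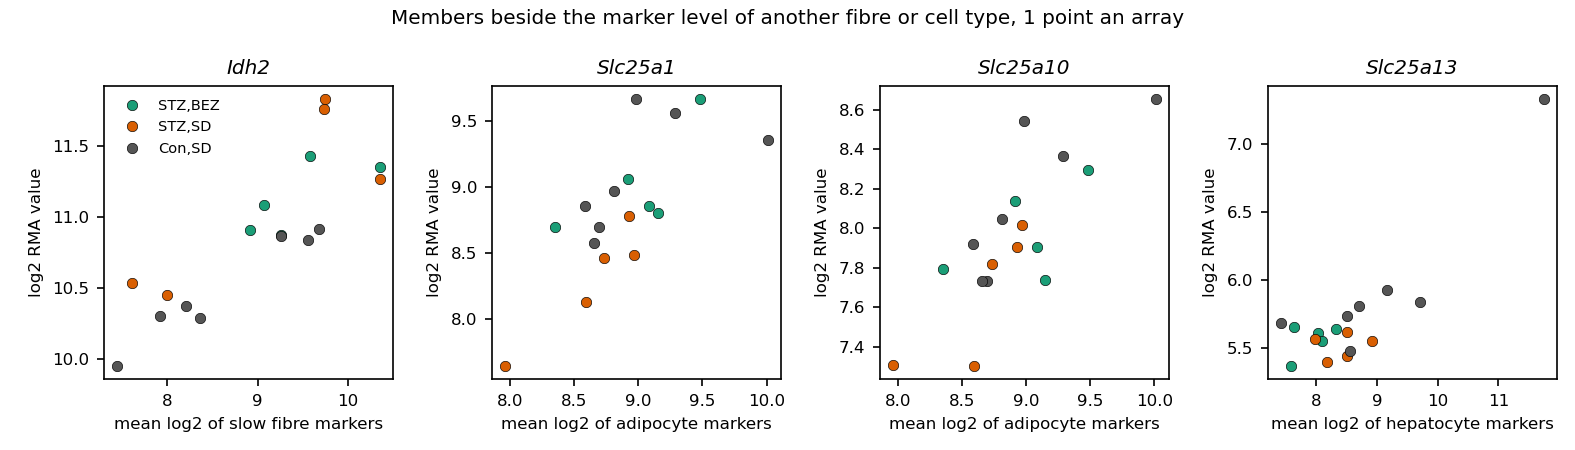
Log2 RMA values of Idh2, Slc25a1, Slc25a10 and Slc25a13 (y axes) against the mean log2 value of the slow fibre, adipocyte or hepatocyte markers on the same array (x axes), 1 point for each of 17 arrays. The 3 STZ,SD arrays with high Idh2 had slow fibre levels of 9.74 to 10.36, the lowest Slc25a1 lay at the lowest adipocyte level of 7.96, and the highest Slc25a13 lay at a hepatocyte level of 11.75. The part of these cell types in the differences between groups was not tested beyond the covariate fits.

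Isoenzymes and subunits of the same step were compared directly within each array, in 9 pairs, with 2-sided exact permutation tests of the per-array difference (5 against 7 arrays, smallest possible p 0.00253) and adjustment over the 9 pairs. In STZ,SD against Con,SD muscle, Idh3a changed by -0.38 ± 0.09 more than Idh3b and by -0.59 ± 0.12 more than Idh3g, with no overlap of the groups in either pair (exact p = 0.00253, adjusted p = 0.0114 for each). Idh2 changed by 1.18 ± 0.29 relative to Idh1 (exact p = 0.00758, adjusted p = 0.017). The pair of Ogdh and Ogdhl is not read here, since Ogdhl lay between 5.45 and 5.79 on every array, below the array medians of 6.22 to 6.32.

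In 5 other pairs the adjusted p lay between 0.0545 and 0.096. The cytosolic or GTP-specific form was lower relative to its partner in Mdh2 and Mdh1 (0.27 ± 0.12, exact p = 0.053), Got2 and Got1 (0.14 ± 0.05, exact p = 0.0303) and Sucla2 and Suclg2 (0.28 ± 0.12, exact p = 0.0379), each value being the change of the gene named first minus that of its partner. Me3 changed by 0.28 ± 0.16 relative to Me2 (exact p = 0.0732) and Slc25a13 by -0.39 ± 0.24 relative to Slc25a12 (exact p = 0.096). Slc25a13 lay below the array medians on all arrays but Con,SD array 1. All 5 lost their call without at least 1 array. This was STZ,SD array 5 for Got2 and Got1, STZ,SD array 1 or 5 for Sucla2 and Suclg2, STZ,SD array 2 or 5 or Con,SD array 1, 3 or 4 for Mdh2 and Mdh1, any array but STZ,SD array 1 and Con,SD arrays 6 and 7 for Me3 and Me2, and any array but Con,SD arrays 6 and 7 for Slc25a13 and Slc25a12. The lowest and highest differences were 0.21 and 0.34 for Mdh2 and Mdh1, 0.12 and 0.17 for Got2 and Got1, 0.22 and 0.36 for Sucla2 and Suclg2, 0.19 and 0.41 for Me3 and Me2, and -0.48 and -0.16 for Slc25a13 and Slc25a12, the last without Con,SD array 1.

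Between STZ,BEZ and STZ,SD muscle none of the 9 pairs was called (5 against 5 arrays, smallest possible exact p 0.00794), with exact p of 0.302 to 1.0 and differences of -0.21 to 0.10.

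**Figure D4:**
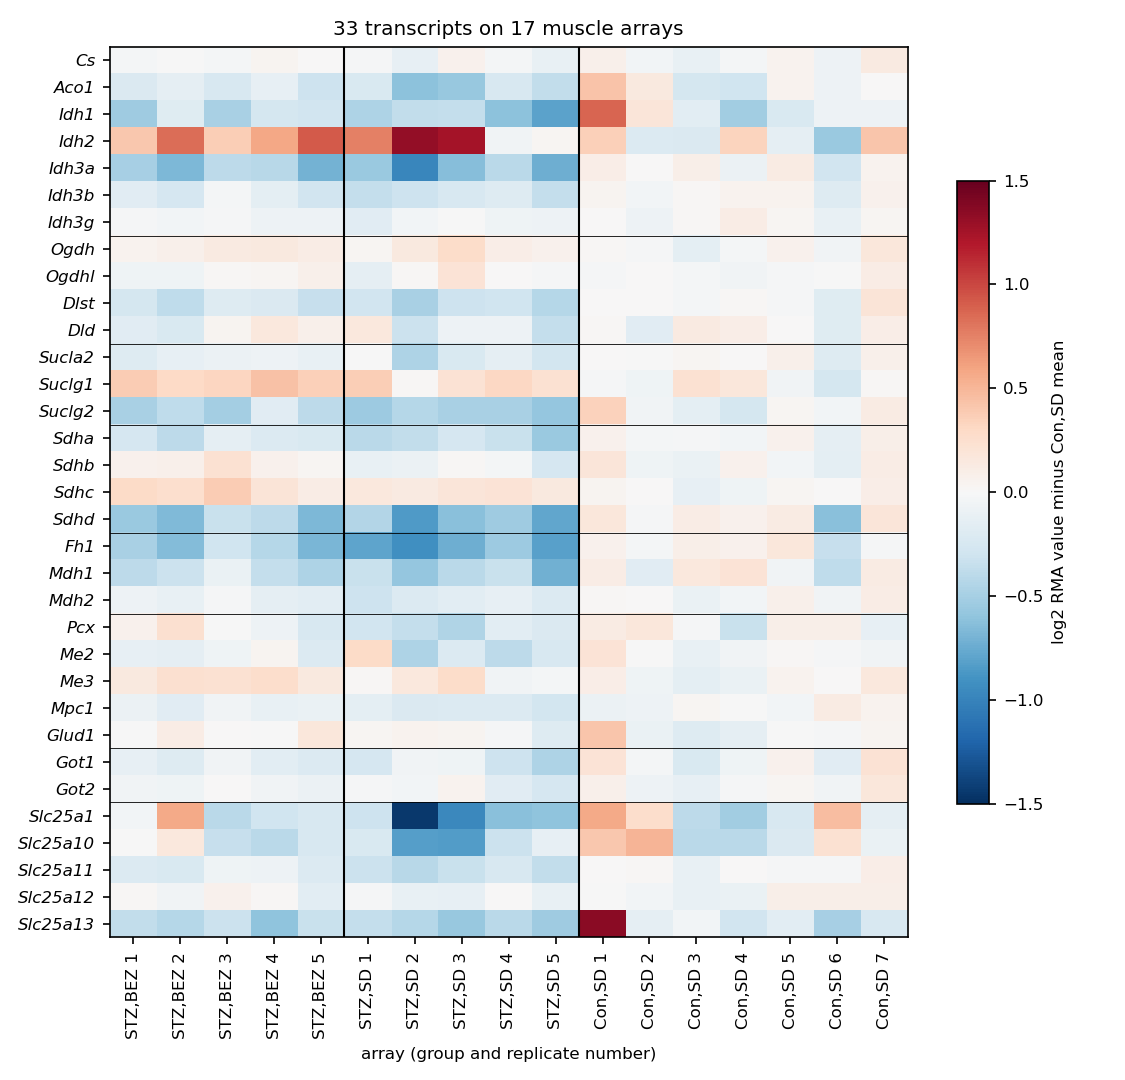
Log2 RMA value minus the mean of the Con,SD group (colour) for the 33 transcripts (rows, by role) on 17 arrays (columns, STZ,BEZ, STZ,SD and Con,SD with replicate number). Idh3a, Sdhd and Fh1 are blue across both diabetic groups. Sdhc and Suclg1 are pale red across both, except Suclg1 on STZ,SD array 2, at 10.39 against a Con,SD mean of 10.38. Con,SD array 6 is low in Sdhd at 10.60, and Con,SD array 1 is high in Slc25a13 at 7.33.

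The mean of the 33 transcripts on an array, as a description, was 10.47 to 10.54 in STZ,BEZ muscle and 10.30 to 10.45 in STZ,SD muscle, against a median of 10.61 and a highest of 10.80 in Con,SD muscle. All STZ,SD arrays lay below all arrays of both other groups.

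Genes that feed the cycle or mature its enzymes were read from a list of 50, of which 45 were measured. In STZ,SD against Con,SD muscle 16 fell and 7 rose, while 11.9% and 13.9% of all genes were called in these directions, with a median difference of -0.15, against -0.01 for all genes. The share that rose was close to that of all genes. Iron-sulphur cluster and lipoic acid assembly, on which succinate dehydrogenase and the 2-oxoglutarate complex depend, held 6 of these falls among 9 genes and no rise. Nfu1, which delivers iron-sulphur clusters, fell by 0.62 ± 0.08 (adjusted p = 7.4e-05), and Lipt2, an octanoyl transferase of lipoic acid synthesis, fell by 0.39 ± 0.08 (adjusted p = 0.00165). Of 4 succinate dehydrogenase assembly factors 3 fell, led by Sdhaf2, which helps to attach the flavin to Sdha (-0.52 ± 0.07, adjusted p = 7.9e-05), and Sdhaf1 (-0.30 ± 0.08, adjusted p = 0.0101).

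In the propionyl-CoA route into succinyl-CoA, 2 of 4 fell, while 11.9% of all genes were called lower. The epimerase Mcee fell by 0.42 ± 0.05 (adjusted p = 5.4e-05) and the carboxylase subunit Pccb by 0.33 ± 0.09 (adjusted p = 0.0126). Among the other citrate and acetyl-CoA enzymes, Acly, the cytosolic ATP citrate lyase, fell by 0.60 ± 0.13 (adjusted p = 0.00388), and Acss1, a mitochondrial acetyl-CoA synthetase, rose by 1.00 ± 0.20 (adjusted p = 0.00185). Gpd1, the cytosolic enzyme of the glycerol phosphate shuttle, fell by 0.45 ± 0.09 (adjusted p = 0.00185), as 1 of 3 genes of that shuttle.

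Rises were seen in 2 of 4 other carriers and in 2 of 5 genes of the deacylase and NADP list, while 13.9% of all genes were called higher. Slc25a42, a mitochondrial coenzyme A carrier, rose by 0.49 ± 0.08 (adjusted p = 0.000291). From the deacylase and NADP list these were Nadk2, the mitochondrial NAD kinase (0.33 ± 0.08, adjusted p = 0.0105), and Nnt, the proton-driven transhydrogenase (0.84 ± 0.22, adjusted p = 0.0132). Of the amino acid entry genes Gpt, an alanine aminotransferase, fell by 0.28 ± 0.09 (adjusted p = 0.0402) and Glul, glutamine synthetase, rose by 0.61 ± 0.23 (adjusted p = 0.0781). The STZ,SD arrays 1 to 3, with the high slow fibre markers, were also the higher ones for Acss1, Nnt and Glul. Acss1 had 9.33, 10.13 and 10.03 on them and 8.73 and 8.89 on STZ,SD arrays 4 and 5. Nnt had 10.37, 11.11 and 11.07 on them and 9.88 and 9.91 on arrays 4 and 5. For Glul the values were 11.64, 12.51 and 12.26, and 10.96 and 11.12. The fit with the slow fibre covariate was not read for Acss1, Nnt or Glul, and the part of slow fibres in these rises was not tested. Of the remaining lists, Oxct1, the ketone-using transferase, fell by 0.30 ± 0.10 (adjusted p = 0.0468), Fahd1, an oxaloacetate decarboxylase, fell by 0.27 ± 0.09 (adjusted p = 0.0385), and Pck2, mitochondrial phosphoenolpyruvate carboxykinase, rose by 0.20 ± 0.07 (adjusted p = 0.0528).

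With BEZ, 0 of these 45 genes were called against STZ,SD by limma, 11 were higher and 0 lower at an unadjusted p under 0.05 (3.55% and 2.14% of all genes), and 37 of 45 differences were positive (50.7% of all genes) with a median of 0.14 (0.0016 for all genes). In STZ,BEZ against Con,SD muscle 7 fell and 7 rose, while 8.45% and 13.1% of all genes were called in these directions, with a median difference of 0.01, against -0.01 for all genes. The share that rose was again close to that of all genes. Nfu1 was 0.53 ± 0.08 lower (-0.53, adjusted p = 0.000473) and Sdhaf2 fell by 0.35 ± 0.07 (adjusted p = 0.00227). The propionyl-CoA route was called in both directions. The epimerase Mcee was lower (-0.26 ± 0.05, adjusted p = 0.00347). Mmut, the methylmalonyl-CoA mutase at the end of the route, rose by 0.33 ± 0.07 (adjusted p = 0.00388). Slc25a42 rose by 0.56 ± 0.08 (adjusted p = 0.000163).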

How the data were processed

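Total RNA of skeletal muscle was hybridised to Affymetrix whole-transcript arrays for mouse. The deposited values are log2 values that the authors had summarised with RMA (Affymetrix Expression Console 1.2, per the submitters' processing notes), with 35556 probe sets and no missing value. No counts exist for arrays, and the number of mice limits the precision. Groups came from the sample labels.

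Of the probe sets, 21789 carried 1 gene symbol and gave 19938 genes. All 17 arrays entered 1 limma fit (version 3.58.1, R 4.3.3) with Benjamini-Hochberg adjustment over all genes, and a gene was called at an adjusted p under 0.1. Isoenzyme pairs were tested by exact permutation (scipy 1.17.1). Data were simulated for 19938 genes, of which 100 were changed 1.5-fold and another 100 were changed 2-fold. Noise was drawn independently for each gene. Of the 1.5-fold changes, limma recovered 94% in STZ,SD against Con,SD. It recovered 91% in STZ,BEZ against STZ,SD and 93% in STZ,BEZ against Con,SD. The false shares, taken over all calls with both sizes of change present, were 8.65%, 7.39% and 5.45% in the same order. Changes below 1.5-fold were not simulated, so these shares do not give the power to call the mostly smaller differences with BEZ. On the arrays themselves, Slc25a1 differed 1.64-fold between STZ,BEZ and STZ,SD muscle without being called (limma, adjusted p = 0.778).

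The members and lists were chosen with earlier results of these data known. Members were named where called or where the unadjusted p was under 0.05, with 1 member of each role named whatever its value, and per-array values were given for the 2 called members of smallest adjusted p in each role. The per-array values of Idh2, Sdhb, Slc25a10 and Slc25a13 were added after their values had been seen, as were the slow fibre and adipocyte covariates. Idh3g, Dld, Ogdhl, Me2, Glud1 and Got2 were named as well, to account for every member. Of the other genes, at most 2 of each list were named in a comparison. The other alternatives were further normalizations, other probe set rules, SAM with 100 permutations, array weights, a hepatocyte covariate, a replicate block and leaving out arrays, among them Con,SD arrays 1, 3 and 4, which an earlier analysis of these data had set apart.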

Additional observations from a re-analysis of the deposited data

Results flagged for a closer look

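In 8 of 99 sets of values (33 transcripts in 3 groups) the highest or lowest array stood far from the rest of its group, and chance alone gives about 1 in 20. Con,SD array 6 was lowest in Sdhd at 10.595 (nearest other array 11.206), in Fh1 at 11.036 (nearest 11.357) and in Sucla2 at 10.924 (nearest 11.106). Without it Sdhd and Fh1 fell by 0.75 and 0.82 in STZ,SD muscle. Con,SD array 1, which had the highest hepatocyte marker level, was highest in Slc25a13 at 7.329 (nearest 5.928), in Glud1 at 10.155 (nearest 9.785) and in Me2 at 6.834 (nearest 6.644). Con,SD array 7 was highest in Ogdhl at 5.698 (nearest 5.588). STZ,BEZ array 3 was highest in Sdhb at 12.06 (nearest 11.902).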

How the results depend on the processing

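The counts of called transcripts kept within 1.5 times their value in all but these cases. The replicate block left 1 higher in STZ,SD against Con,SD (17 lower), with Idh2 (0.63, adjusted p = 0.123) and Suclg1 (0.18, adjusted p = 0.109) not called, and the slow fibre covariate left 2 higher in STZ,BEZ against Con,SD (10 lower). Without any single array, 17 to 18 were lower and 2 to 4 higher in STZ,SD against Con,SD, 0 to 0 were called in STZ,BEZ against STZ,SD, and 7 to 10 were lower and 2 to 4 higher in STZ,BEZ against Con,SD (2 higher without STZ,BEZ array 2 or 4). After a further quantile normalization 15 were lower and 4 higher in STZ,SD against Con,SD. Over all genes SAM called 46 in STZ,BEZ against STZ,SD, where limma called 4.

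Signs turned only for differences that were not called, which were below 0.1 in size except for Idh1 in STZ,BEZ against Con,SD (-0.35). A further quantile normalization gave 0.0185 for Cs and 0.0012 for Slc25a12 in STZ,SD against Con,SD, 0.0492 for Cs and 0.0323 for Slc25a12 in STZ,BEZ against Con,SD, and 0.0148 for Sucla2 and Suclg2 and -0.0321 for Me3 and Me2 as pairs in STZ,BEZ against STZ,SD. In STZ,BEZ against Con,SD the hepatocyte covariate gave 0.0044 for Cs, 0.0042 for Idh1 and 0.0859 for Pcx, and the slow fibre covariate 0.0555 for Pcx. Leaving out 1 array gave -0.0211 to 0.0197 for Cs, -0.063 to 0.0548 for Pcx and -0.0477 to 0.0086 for Slc25a12 in that comparison. In STZ,BEZ against STZ,SD it gave -0.0413 to 0.0201 for Ogdh, and for the pairs -0.0614 to 0.0573 (Idh3a and Idh3b), -0.0107 to 0.0157 (Ogdh and Ogdhl), -0.092 to 0.0514 (Sucla2 and Suclg2), -0.1095 to 0.0153 (Mdh2 and Mdh1), -0.1112 to 0.1127 (Me3 and Me2) and -0.048 to 0.0631 (Slc25a13 and Slc25a12). The cause was not tested.

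Replicate numbers did not pair the samples: deviations of same-numbered arrays correlated at -0.0441 to 0.072 between STZ,SD and Con,SD and at -0.239 to -0.0317 between STZ,BEZ and STZ,SD. Between STZ,BEZ and Con,SD they correlated at -0.0848 to 0.083. Only there, at replicate number 4, did the same number give the higher value (0.083, against at most 0.0397 with another number). With the replicate block, which leaves Con,SD arrays 6 and 7 without a partner, 9 were lower and 3 higher in STZ,BEZ against Con,SD, 0 were called in STZ,BEZ against STZ,SD, and Cs and Slc25a12 differed by 0.01 and 0.0092 between STZ,BEZ and Con,SD.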
